A study of Mus musculus with 4 samples.

Results

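The RNA of 9 genes whose proteins join cardiomyocytes end to end at the intercalated disc was measured in nuclei of neonatal mouse hearts after myocardial infarction (MI) or Sham surgery. The genes were taken by name, *Gja1*, *Cdh2*, *Dsp*, *Pkp2*, *Jup*, *Ctnna3*, *Dsg2*, *Vcl* and *Tjp1*, and all 9 were found among the 22574 genes of the deposited matrix. The study profiled single nuclei to ask how cardiomyocytes respond to injury without the transcription factor Nrf1, the product of *Nfe2l1*. There were 4 libraries, 1 each labelled WT-Sham, WT-MI, KO-Sham and KO-MI. All mice carried Nrf1fl/fl, a loxP-flanked *Nfe2l1*. The KO mice also carried aMHC-Cre, a recombinase driven by the cardiomyocyte promoter of alpha myosin heavy chain, and the mice labelled wildtype did not. The labels give a C57BL/6 background for the matings, while the last digit in the strain field differs between the 4 samples. Surgery was done at postnatal day 3, and the methods place tissue collection 1 day later. Each library pooled ventricular tissue of 4 to 6 hearts of 1 genotype, so nuclei within a library are not replicates, and with 1 library per group no test was made.

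At the intercalated disc, gap junctions pass current and small molecules between neighbouring cardiomyocytes, fasciae adherentes anchor the sarcomeric actin filaments, and desmosomes anchor the desmin filaments. In the newborn mouse heart these junctions are still spread along the sides of the cell and gather at its ends during the following weeks. Mutations in desmosomal genes are a known cause of arrhythmogenic cardiomyopathy in people.

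Positions are of GRCm38, with spans taken from the GENCODE M21 annotation. *Gja1* (ENSMUSG00000050953.10) is at chr10:56377330-56402513 and *Ctnna3* (ENSMUSG00000060843.11) on the same chromosome at chr10:63430098-65003667. *Dsp* is at chr13:38151294-38198577, *Pkp2* at chr16:16213318-16272712, *Jup* at chr11:100368958-100397763, *Vcl* at chr14:20929398-21033676, and *Tjp1* at chr7:65296165-65527781. Their spans run from 25.2 kb for *Gja1* and 28.8 kb for *Jup* to 1574 kb for *Ctnna3*. Since reads in introns were counted, a longer span can add to the counted RNA of a gene, but whether counts scale with span was not tested. Within their spans, *Ctnna3* holds *Lrrtm3*, and *Vcl*, *Cdh2* and *Dsg2* overlap *Ap3m1*, *Gm15485* and *Gm16090*, all on the opposite strand, and the use of strand in the counting is not given in the sources used here, so these 4 values may include reads of those genes. *Tjp1* overlaps 3 annotated genes, 2 of them on its own strand, and *Dsp* overlaps 1 on the opposite strand. None of these is in the matrix, and the values of *Tjp1* and *Dsp* may include their reads too. *Gja1*, *Pkp2* and *Jup* overlap no annotated gene.

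The 250 bases before the annotated start are shown for 3 genes that the results turn on, the gap junction gene, the adherens gene that was higher with the MI label in CM1, CM4 and CM5, and the catenin whose level differed most between surgeries in CM5. The sequences are RefSeq promoters of GRCm38.p6 on the plus strand, 5′ to 3′, for chr10:56377050-56377299, chr14:20929148-20929397 and chr10:63429848-63430097, the last being the first of 3 annotated *Ctnna3* starts. Capitals mark matches to the motifs searched.
Gja1: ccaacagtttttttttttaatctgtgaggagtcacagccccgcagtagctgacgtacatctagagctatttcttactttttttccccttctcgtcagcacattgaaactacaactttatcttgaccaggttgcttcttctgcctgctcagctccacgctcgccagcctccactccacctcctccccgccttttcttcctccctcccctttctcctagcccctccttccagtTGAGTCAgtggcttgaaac
Vcl: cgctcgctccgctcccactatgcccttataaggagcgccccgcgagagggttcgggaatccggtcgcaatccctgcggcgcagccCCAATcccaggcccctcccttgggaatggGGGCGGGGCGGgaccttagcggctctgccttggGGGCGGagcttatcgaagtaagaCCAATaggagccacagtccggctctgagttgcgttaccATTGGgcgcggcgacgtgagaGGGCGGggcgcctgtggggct
Ctnna3: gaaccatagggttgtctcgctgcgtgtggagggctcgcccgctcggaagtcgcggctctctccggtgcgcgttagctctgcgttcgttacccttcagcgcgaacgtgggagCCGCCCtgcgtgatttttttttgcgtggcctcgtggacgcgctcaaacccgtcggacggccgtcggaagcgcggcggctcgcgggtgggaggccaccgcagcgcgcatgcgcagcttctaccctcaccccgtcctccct
The motifs were searched on both strands in the 6 members that the table held, *Gja1*, *Dsp*, *Jup*, *Ctnna3*, *Vcl* and *Tjp1*. TGANTCA, the AP-1 motif, was in *Gja1* alone of the 6, with its first base at -19 from the start, and was in 6.73% of all 32536 promoters. GGGCGG was in 5 of the 6 members and in 33.0% of promoters, and *Vcl* held 4 matches, of which those at -136 and -131 share a base. CCAAT was in *Vcl*, with 3 matches, and in *Jup*, with 2, against 33.8% of promoters. TATAAA was in *Ctnna3*, at start 3 of its 3 starts, against 12.3%. TGACNNNGC, the core of the antioxidant response element to which Nrf1 binds, was in none of the 6 windows and in 10.2% of promoters, and its matches can overlap those of TGANTCA.

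The matrix held 8585 nuclei and the deposited population labels CM1, CM2, CM4 and CM5, where CM1 also holds CM3. Summed UMIs (unique molecular identifiers, counts of captured RNA molecules) per library were 4984625 to 9106522, and the median nucleus had 3554 to 3959 UMIs in 3 libraries and 2572 in the library labelled KO-Sham, which also had the highest median mitochondrial share, 8.98% against 5.29% to 6.58%. All 9 cardiomyocyte markers, *Tnnt2* among them, were detected in each population of each library. There were 9 barcode sequences found in more than 1 library, in 18 nuclei, and no member's value in CM1 changed sign without those nuclei. The targeted gene *Nfe2l1* was at 62.2, 47.4, 50.5 and 55.3 counts per 1000000 UMIs (CPM) in the libraries labelled WT-Sham, WT-MI, KO-Sham and KO-MI. It was thus lower in KO-Sham than in WT-Sham, but higher in KO-MI than in WT-MI, against the label, with overlapping intervals for the latter (50.1 to 60.9 and 42.7 to 52.4 CPM). In CM1 KO-MI was again higher, at 57.7 CPM (51.4 to 64.5) against 44.1 CPM (38.9 to 49.9), and there the intervals did not overlap. In CM4 KO-MI was lower, at 32.0 against 61.7 CPM (11 and 26 UMIs), and likewise in CM2, at 31.0 against 54.4 CPM (9 and 14 UMIs). Where the deleted part lies relative to the counted reads is not given in the sources used here. Group names below therefore mean the library labelled so.

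In CM1, the population with most nuclei (1098 to 2619 per library), levels per kb of gene span set *Gja1* apart. By CPM alone *Ctnna3* and *Cdh2* were above it, at 7336 and 1816 against 703 CPM in WT-Sham, so its rank depends on the division by span. *Gja1*, which encodes connexin 43, the main gap junction protein of the ventricle, had 27.9, 21.1, 23.3 and 21.3 CPM per kb in WT-Sham, WT-MI, KO-Sham and KO-MI. *Cdh2* and *Pkp2* followed with 6.84 to 8.26 and 6.33 to 7.83 CPM per kb. Next came *Dsp* (3.40 to 4.67), *Ctnna3* (3.81 to 4.66) and *Dsg2* (2.88 to 3.68), and then *Jup* (1.69 to 2.41) and *Vcl* (1.71 to 2.97), in CPM per kb. *Tjp1* was lowest, at 0.415 to 0.572 CPM per kb. Over the 4 libraries the ranges of *Cdh2* and *Pkp2* overlapped, as did those of *Dsp* with *Ctnna3* and with *Dsg2*, and those of *Vcl* with *Jup* and with *Dsg2*, *Vcl* being above *Dsg2* in KO-MI (2.97 and 2.88 CPM per kb). A CPM is a share of a library's UMIs, so less RNA of a gene and more RNA of other genes cannot be told apart.

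**Figure D1:**
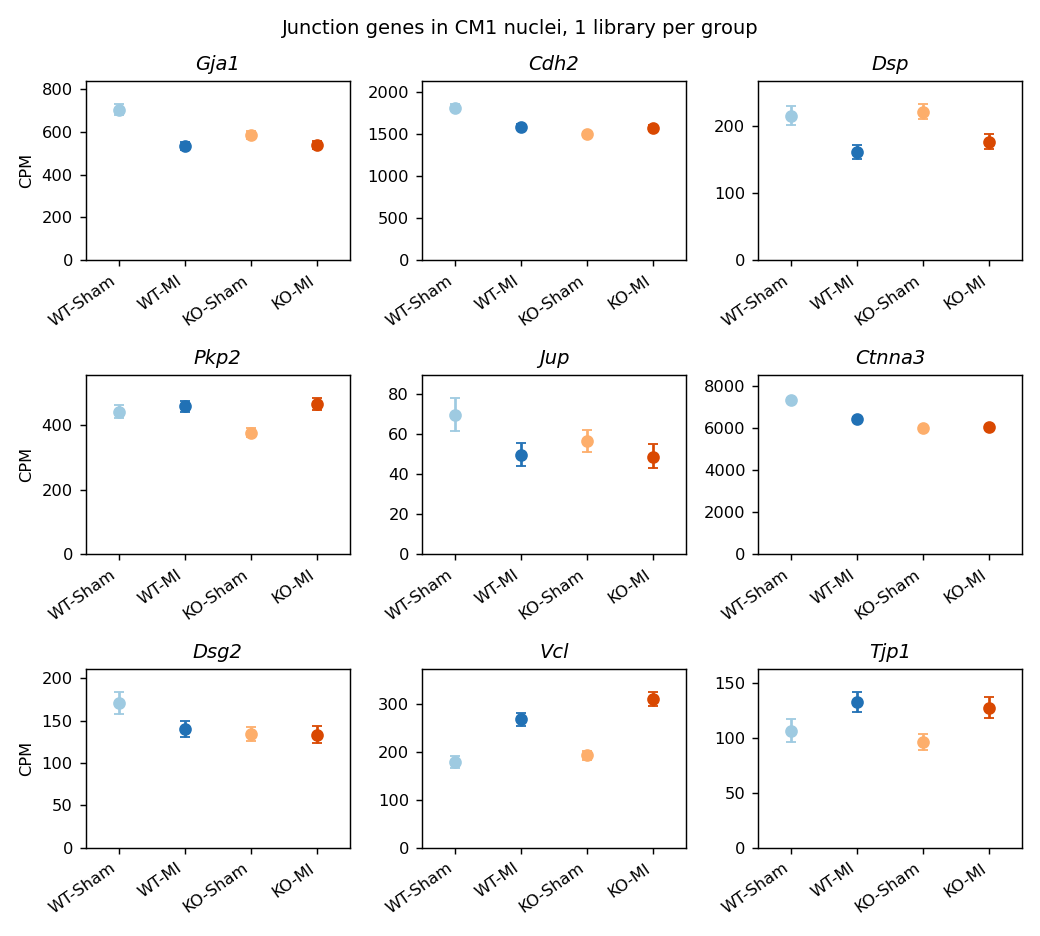
Each panel shows 1 junction gene in CM1 nuclei, with CPM of summed UMIs on a linear axis from 0 and 1 point for each of the 4 libraries; bars are exact 95% Poisson intervals, which cover counting error only. *Vcl* and *Tjp1* are higher in both libraries labelled MI than in both labelled Sham, *Dsp* and *Jup* are lower in both, and *Ctnna3*, *Cdh2* and *Dsg2* are highest in the library labelled WT-Sham.

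The gap junction gene *Gja1* and the scaffold gene *Tjp1* went opposite ways with the surgery label in CM1. *Gja1* had 703 CPM in WT-Sham (95% Poisson interval 678 to 729), 533 in WT-MI (514 to 552), 586 in KO-Sham (569 to 604) and 537 in KO-MI (518 to 557). The library labelled WT-Sham stood above the other 3, the intervals of the MI libraries overlapped, and the log2 ratio of MI over Sham was -0.40 (-0.47 to -0.33, from the exact conditional binomial) for the WT label and -0.13 (-0.19 to -0.06) for the KO label. *Tjp1*, which encodes the scaffold ZO-1 that binds connexin 43 at the edge of the plaque, had 106 CPM in WT-Sham (96.5 to 117), 133 in WT-MI (124 to 142), 96.2 in KO-Sham (89.3 to 104) and 127 in KO-MI (118 to 137). Both MI libraries were above both Sham libraries with no overlap of their intervals, and the log2 ratios were 0.32 (0.15 to 0.49) and 0.40 (0.25 to 0.56).

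Of the 3 genes of the fascia adherens, *Vcl* was higher in both libraries labelled MI, while *Cdh2* and *Ctnna3* were lower with MI for the WT label. *Vcl* encodes vinculin, which is recruited to cadherin junctions under tension, and had 178 CPM in WT-Sham (165 to 191), 267 in WT-MI (253 to 280), 192 in KO-Sham (182 to 202) and 309 in KO-MI (294 to 324). MI and Sham libraries did not overlap, with log2 ratios of 0.58 (0.46 to 0.71), which is the 1.5-fold line, for the WT label and 0.69 (0.58 to 0.79), or 1.61-fold, for the KO label. *Cdh2* encodes N-cadherin, the cadherin of the adherens junction, and had 1816 CPM in WT-Sham, 1591 in WT-MI, 1506 in KO-Sham and 1573 in KO-MI. Its log2 ratio of MI over Sham was -0.19 (-0.24 to -0.15) for the WT label and 0.06 (0.02 to 0.10) for the KO label, which became 0.00 with scaling by the trimmed mean of M values (TMM) over the 4 sums of CM1 and 0.04 with TMM over the 16 sums of library and population. *Ctnna3* encodes alpha-T-catenin, which couples N-cadherin to actin and binds plakophilin 2, and had 7336, 6439, 6001 and 6032 CPM in WT-Sham, WT-MI, KO-Sham and KO-MI. The ratio was -0.19 (-0.21 to -0.17) for the WT label and 0.01 (-0.01 to 0.03) for the KO label, where it was -0.06 and -0.01 with the same scalings. Again the library labelled WT-Sham lay above the other 3, which spanned a narrower range. Genes that span 500 kb or more had median log2 ratios in CM1 of -0.19 for the WT label and 0.11 for the KO label. Of these, 86 of 173 and 72 of 183 were lower than *Ctnna3*, and their part in its value was not tested.

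The 4 desmosome genes did not share a direction in CM1. *Dsp* encodes desmoplakin, the link from desmosome to desmin, and had 215 CPM in WT-Sham (201 to 230), 161 in WT-MI (151 to 171), 221 in KO-Sham (210 to 232) and 176 in KO-MI (165 to 188). Both MI libraries were below both Sham libraries, with log2 ratios of -0.42 (-0.55 to -0.29) and -0.32 (-0.44 to -0.21). *Jup* encodes plakoglobin, an armadillo protein of desmosomes and adherens junctions, and was at 69.4, 49.5, 56.4 and 48.7 CPM in WT-Sham, WT-MI, KO-Sham and KO-MI. Its ratio was -0.49 (-0.73 to -0.25) for the WT label and -0.21 (-0.44 to 0.01) for the KO label, where no difference was detectable at this depth. *Dsg2* encodes desmoglein 2, the desmosomal cadherin, and was at 171, 140, 134 and 133 CPM in the same order, with -0.28 (-0.43 to -0.13) and -0.01 (-0.15 to 0.13) as log2 ratios. As for *Gja1* and *Ctnna3*, its WT-Sham value stood above the rest. *Pkp2* encodes plakophilin 2, which binds desmoplakin to the plaque, and was at 441 CPM in WT-Sham (421 to 462), 459 in WT-MI (441 to 476), 376 in KO-Sham (362 to 391) and 465 in KO-MI (447 to 484). Here KO-Sham was the library apart, and the ratio was 0.06 (-0.03 to 0.14) for the WT label and 0.31 (0.23 to 0.38) for the KO label.

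A gene was counted as past the line when its ratio was 1.5-fold or more in either direction and its interval excluded no change. By this count 0 of the 9 members were past it for MI over Sham with the WT label, where 18.3% of 12738 genes with 20 or more UMIs were, and 1 of 9, *Vcl*, with the KO label, where 19.0% of 13152 genes were. *Vcl* with the WT label lay at the line itself and was past it, at 0.66 and 0.63, with TMM over the 4 and the 16 sums. The median log2 ratio of the members was -0.19 for the WT label and 0.01 for the KO label, beside -0.07 and 0.03 for all genes. RNA of myeloid cells moved with the surgery label too: all 8 markers were detected, summing to 58.5 and 137 CPM in WT-Sham and WT-MI and to 42.3 and 91.9 CPM in KO-Sham and KO-MI. In the same order, the 7 pericyte and smooth muscle markers summed to 435, 269, 360 and 262 CPM, the 6 epicardial markers to 19.8, 38.3, 21.5 and 27.2 CPM, and the 5 red blood cell genes to 2545, 3829, 1891 and 2025 CPM, all lists with every gene detected. Among nuclei at or under the median share of UMIs from other cell types, the members' medians were -0.19 and 0.08.

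For KO over WT in CM1, none of the 9 members passed 1.5-fold, beside 8.37% of all genes between the Sham libraries and 3.41% between the MI libraries. Between the Sham libraries, 6 members had intervals below no change, *Gja1* (-0.26), *Cdh2* (-0.27), *Pkp2* (-0.23), *Jup* (-0.30), *Ctnna3* (-0.29) and *Dsg2* (-0.35), as log2 ratios. The median of all genes was -0.11 there and moved to 0.01 with TMM over the 4 CM1 sums, and relative to the median of -0.11 the 6 values were -0.11 for *Pkp2* to -0.23 for *Dsg2*, with *Vcl* at 0.22 and *Dsp* at 0.15. Genes that span 500 kb or more had medians of -0.27 between the Sham libraries and -0.06 between the MI libraries. Of these, 81 of 178 and 73 of 175 were lower than *Ctnna3*, and their part in its value was not tested. Between the MI libraries, the values of *Gja1*, *Cdh2*, *Pkp2*, *Jup*, *Dsg2* and *Tjp1* lay within -0.07 and 0.02, with intervals that included no change. *Vcl* was higher in KO-MI than in WT-MI, at 0.21 (0.11 to 0.31), *Dsp* at 0.13 (0.00 to 0.27), and *Ctnna3* lower, at -0.09 (-0.12 to -0.07). The comparison of KO-Sham with WT-Sham shares its WT-Sham library with that of WT-MI with WT-Sham, and *Gja1*, *Cdh2*, *Ctnna3*, *Jup* and *Dsg2*, highest in WT-Sham, had negative log2 ratios in both. KO-Sham was also the library with fewest UMIs per nucleus and the largest mitochondrial share. Between the Sham libraries the members' median was -0.26. It was -0.19 with nuclei thinned to 1000 UMIs and -0.23 without the mitochondrial genome in the total. With thinning *Tjp1* went from -0.14 to 0.03, *Dsp* from 0.04 to -0.05 and *Dsg2* from -0.35 to -0.48. Beyond these 2 settings, the part of depth and mitochondrial share in the values of KO-Sham was not tested.

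**Figure D2:**
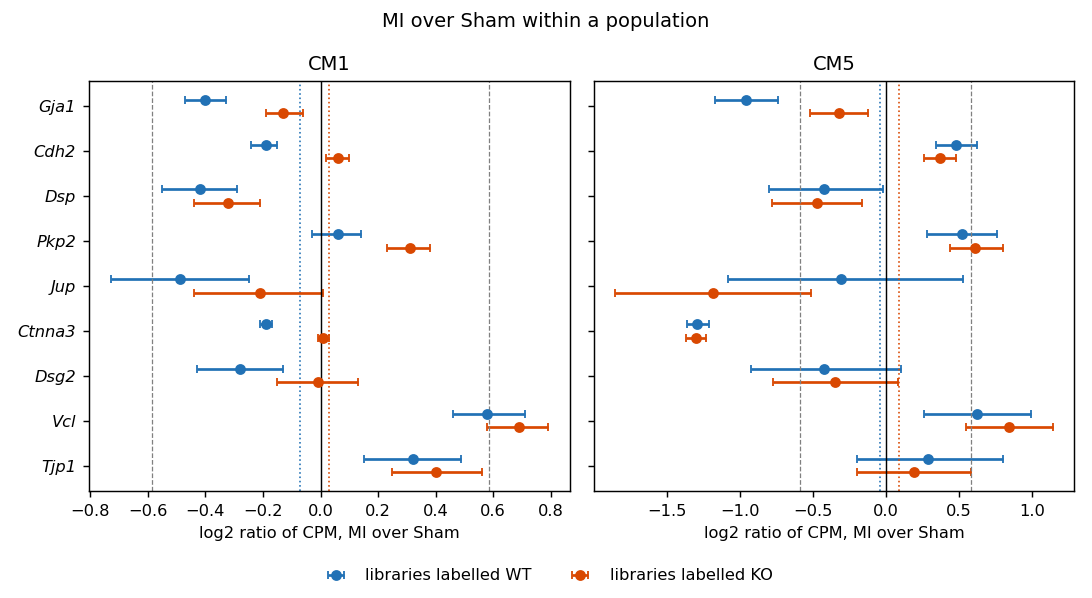
Log2 ratios of CPM, MI over Sham, are shown for the 9 genes in CM1 (left) and CM5 (right), blue for the libraries labelled WT and orange for those labelled KO, with exact 95% intervals for counting error; dashed lines mark 1.5-fold, and dotted lines the median of all genes. *Ctnna3* lies at -1.29 and -1.30 in CM5 and at -0.19 and 0.01 in CM1, and the 2 panels differ in their axis range.

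In CM5, a population of 89 to 355 nuclei per library, *Ctnna3* was the member with the largest difference between surgeries. It had 6494 CPM in WT-Sham (6220 to 6777), 2663 in WT-MI (2580 to 2747), 5210 in KO-Sham (5034 to 5390) and 2117 in KO-MI (2041 to 2194). Both MI libraries were far below both Sham libraries, by 2.44-fold for the WT label (log2 ratio -1.29, -1.36 to -1.21) and by 2.46-fold for the KO label (-1.30, -1.37 to -1.23). Against CM1 of the same library, CM5 was at -0.18 and -0.20 in WT-Sham and KO-Sham and at -1.27 and -1.51 in WT-MI and KO-MI, as log2 ratios. The UMIs were not those of few nuclei, since the 10 nuclei with most held 10.9% to 23.4% of them.

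The CM5 nuclei carried a second label, transferred by the authors from an earlier reference. The transferred label was CM2 in 52 of 89 of them in WT-Sham, 268 of 339 in WT-MI, 136 of 234 in KO-Sham and 287 of 355 in KO-MI. The 2 labels thus differed for most CM5 nuclei, and why is not given in the sources used here. *Ctnna3* was lower with MI under the transferred labels CM2 and CM1 (CM5 nuclei with other transferred labels were not analysed apart). CM5 nuclei with the transferred label CM2 had 6117, 2406, 5377 and 1965 CPM in WT-Sham, WT-MI, KO-Sham and KO-MI, and those with the transferred label CM1 had 7092, 3698, 5081 and 3079 CPM. The log2 ratios were -1.35 and -1.45 in the former and -0.94 and -0.72 in the latter. Of genes that, like *Ctnna3*, span 500 kb or more, 111 had a median log2 ratio of -0.08 in CM5 for the WT label, 15 of them lower than *Ctnna3*, and 113 had a median of 0.08 for the KO label, 9 of them lower. The 9 cardiomyocyte markers summed to 52780 and 53154 CPM in CM5 of WT-Sham and KO-Sham and to 40222 and 38916 CPM in WT-MI and KO-MI. The 7 injury genes, such as *Nppa* and *Ankrd1*, went the other way, with 1916, 13074, 2474 and 15434 CPM in the usual order of libraries. Of other cell types, the 8 myeloid markers summed to 76.9, 123, 45.6 and 92.6 CPM in CM5 of WT-Sham, WT-MI, KO-Sham and KO-MI, and the 7 pericyte and smooth muscle markers, with *Myh11* at 0 in all 4, to 283, 171, 296 and 217 CPM. Red blood cell genes (5) summed to 1916, 3693, 1716 and 2192 CPM, the 6 epicardial markers to 25.2 to 37.2 CPM, the 9 endothelial markers to 101 to 159 CPM and the 8 fibroblast markers to 969 to 1196 CPM. The part of such RNA in these values was not tested, and *Ctnna3* in nuclei at or under the median share of such UMIs gave -1.40 and -1.25.

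The other members of CM5 split by gene. *Vcl* had 228, 349, 194 and 346 CPM in WT-Sham, WT-MI, KO-Sham and KO-MI, with log2 ratios of MI over Sham of 0.62 (0.26 to 0.99) and 0.84 (0.55 to 1.14). *Pkp2* had 520, 745, 521 and 798 CPM, with 0.52 (0.28 to 0.76) and 0.61 (0.44 to 0.80). *Cdh2* had 1541, 2144, 1528 and 1975 CPM, with 0.48 (0.34 to 0.62) and 0.37 (0.26 to 0.48). All 3 were thus higher in both MI libraries, in sums over the population in which *Ctnna3*, whose protein binds those of *Cdh2* and *Pkp2*, was lower. Whether single nuclei showed both was not tested. In CM5 nuclei with the transferred label CM1, *Cdh2* was at 1505, 1651, 1557 and 1628 CPM in WT-Sham, WT-MI, KO-Sham and KO-MI, with overlapping intervals. With the transferred label CM2 it was at 1551, 2242, 1552 and 2065 CPM. With the transferred label CM1, *Vcl* was at 229, 302, 198 and 316 CPM and *Pkp2* at 523, 656, 480 and 687 CPM. For both genes the intervals of MI and Sham overlapped there within the WT and the KO label. They did not overlap with the transferred label CM2. Over all CM5 nuclei *Gja1* had 790, 407, 510 and 408 CPM, with ratios of -0.96 (-1.17 to -0.74) and -0.32 (-0.52 to -0.12). The MI libraries were alike and the Sham libraries were not, KO-Sham over WT-Sham being -0.63 (-0.87 to -0.39). With the transferred label CM2 *Gja1* was at 825, 404, 542 and 395 CPM, and with CM1 at 752, 453, 433 and 514 CPM. In the latter it was thus not lower in KO-MI than in KO-Sham, and those 2 intervals overlapped. *Dsp* was lower in both MI libraries, at -0.42 (-0.80 to -0.02) and -0.47 (-0.78 to -0.16), and *Jup* in KO-MI, at -1.18 (-1.85 to -0.51) from 39 and 40 UMIs. *Dsg2* and *Tjp1* had intervals that included no change.

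In CM5, 1 member (*Vcl*) passed 1.5-fold upward and 2 (*Ctnna3* and *Gja1*) downward with the WT label, beside 24.8% of 8361 genes in either direction. With TMM over the 16 sums 3 were past it upward, *Cdh2* (0.64), *Pkp2* (0.68) and *Vcl* (0.78), and the same 2 downward. With the KO label 2 (*Vcl* and *Pkp2*) passed upward and 2 (*Ctnna3* and *Jup*) downward, beside 29.2% of 8929 genes. The members' medians were -0.31 and -0.32, against -0.04 and 0.09 for all genes. For KO over WT, 1 member was past the line downward between the Sham libraries (*Gja1*, -0.63, but -0.54 and not past it with TMM), beside 8.66% of genes, and 1 between the MI libraries (*Jup*, -0.69, -1.30 to -0.09), beside 4.79%. *Ctnna3* was lower in both KO libraries, at -0.32 (-0.40 to -0.24) and -0.33 (-0.40 to -0.26), and the other members had intervals that included no change, apart from *Cdh2* at -0.12 (-0.19 to -0.04) between the MI libraries.

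**Figure D3:**
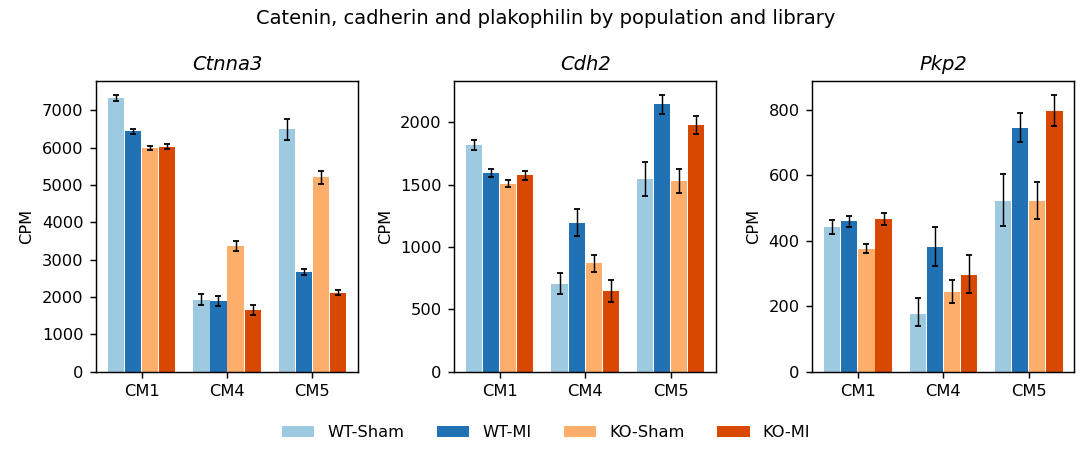
Bars give CPM, on a linear axis from 0, of *Ctnna3*, *Cdh2* and *Pkp2* in CM1, CM4 and CM5 of the 4 libraries, with exact 95% Poisson intervals for counting error. In CM5 of the MI libraries *Ctnna3* is at 2663 and 2117 CPM while *Cdh2* and *Pkp2* are at their highest, and in CM4 all 3 genes are lower than in CM1 of the same library.

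CM4, with 118 to 351 nuclei per library, had less RNA of most members than CM1 of the same library. The log2 ratio of CM4 over CM1 was below 0 in all 4 libraries for 7 of the 9 members, beside 34.2% of 10614 genes, and above 0 in all 4 for 1, *Jup*, beside 24.4%. The populations were clustered from the same expression values, so this describes them and tests nothing. *Ctnna3* stood at -1.93, -1.77, -0.83 and -1.88 in WT-Sham, WT-MI, KO-Sham and KO-MI, and *Dsg2* at -1.83, -1.49, -0.59 and -2.35, the last from 9 UMIs. In both the ratio nearest 0 was that of KO-Sham, and its interval did not overlap those of the other 3 for *Ctnna3*. *Cdh2* ranged from -1.36 to -0.42, *Pkp2* from -1.32 to -0.27, *Vcl* from -1.09 to -0.49 and *Gja1* from -0.76 to -0.21, all 4 with intervals below 0 in every library. *Tjp1* was between -0.64 and -0.11, with intervals that included 0 in WT-Sham (-0.62 to 0.37) and KO-Sham (-0.53 to 0.23). *Jup* was between 0.20 and 0.52 with intervals that included 0, and *Dsp* between -0.20 and 0.28, likewise. The members' medians were -1.09, -0.48, -0.49 and -0.69 in the usual order, against -0.36, -0.07, -0.11 and -0.22 for all genes.

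RNA of most other cell types was higher in CM4. All 9 cardiomyocyte markers were detected there, at 43572 to 49576 CPM, but the 9 endothelial markers summed to 366 to 571 CPM against 105 to 142 in CM1, the 8 fibroblast markers to 2038 to 2516 against 916 to 1062, and the 5 red blood cell genes to 3538 to 12805 against 1891 to 3829. The 8 myeloid markers summed to 64.3 to 304 CPM against 42.3 to 137 in CM1, with *Adgre1*, *Itgam* or *Csf1r* at 0 in 1 library each. The 6 epicardial markers summed to 39.7 to 68.8 CPM against 19.8 to 38.3, with *Bnc1* at 0 in CM4 of every library. The 7 pericyte and smooth muscle markers were lower in CM4 except in KO-MI. They summed to 324, 259, 307 and 323 CPM against 435, 269, 360 and 262 in CM1, in the usual order. *Myh11* was at 0 in CM4 of both Sham libraries. Nuclei of CM4 were also shallower, with medians of 1716 to 2394 UMIs against 2632 to 4044, and richer in mitochondrial RNA. The mean share of UMIs from other cell types was lowest in CM4 of KO-Sham, 0.259% against 0.337% to 0.378%. Among CM4 nuclei at or under the median share of all nuclei, 17, 22, 98 and 17 per library, *Ctnna3* gave -2.67, -1.86, -0.82 and -2.31 over CM1, and *Cdh2* -1.47, -0.15, -0.94 and -1.17. In these few nuclei *Jup* was no longer above CM1 in every library, at 0.70, -1.29, -0.92 and 0.64 from 1 to 5 UMIs, *Tjp1* was at 0.07 and 0.12 in WT-Sham and WT-MI, and *Pkp2* in WT-Sham was at -0.60 instead of -1.32.

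**Figure D4:**
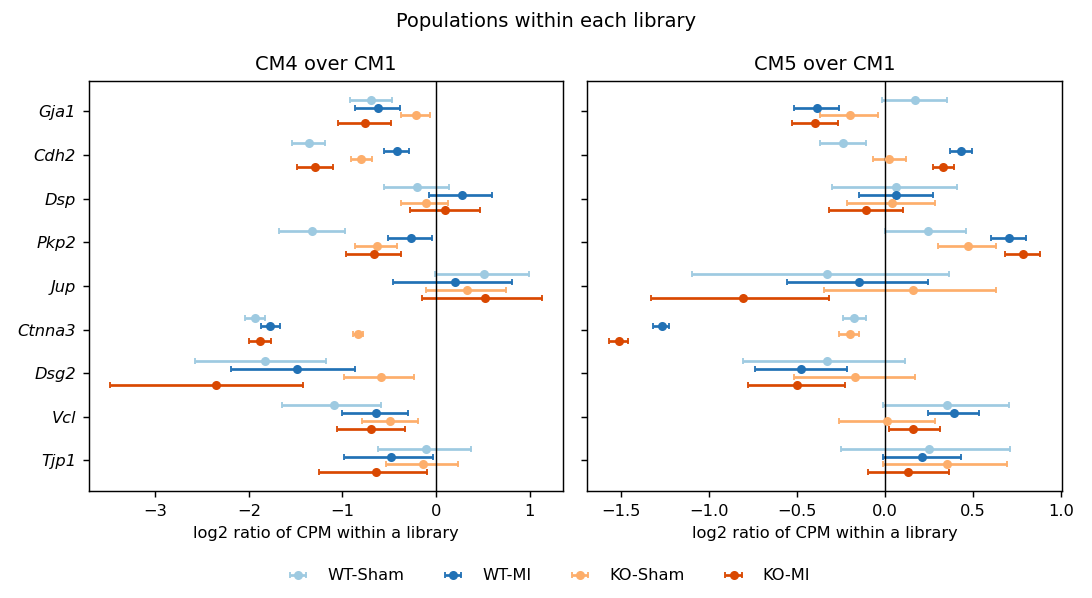
Log2 ratios of CPM within a library, CM4 over CM1 (left) and CM5 over CM1 (right), are shown for the 9 genes, 1 point per library with the exact 95% interval for counting error; the axis ranges differ. Most points for CM4 lie below 0, with *Jup* and *Dsp* around or above it, and in CM5 *Ctnna3* is near -0.2 in the Sham libraries and at -1.27 and -1.51 in the MI libraries.

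In CM5, 3 members were above CM1 in all 4 libraries (*Pkp2*, *Vcl* and *Tjp1*), beside 11.4% of 10659 genes, and 2 were below it (*Ctnna3* and *Dsg2*), beside 15.1%. Here too the populations were clustered from the same expression values, so these counts describe them and test nothing. *Pkp2* was at 0.24, 0.70, 0.47 and 0.78 in WT-Sham, WT-MI, KO-Sham and KO-MI, so both MI libraries were above both Sham libraries. *Vcl* was at 0.35, 0.39, 0.01 and 0.16, and the KO-Sham value became -0.11 with TMM over the 16 sums. Its intervals included 0 in WT-Sham (-0.01 to 0.70) and KO-Sham (-0.26 to 0.28). *Tjp1* was at 0.25, 0.21, 0.35 and 0.13, with intervals that included 0 in every library. *Dsg2* was at -0.33, -0.48, -0.17 and -0.50, with intervals that included 0 in WT-Sham and KO-Sham. *Cdh2* was above CM1 with the MI label, at 0.43 and 0.33, and at -0.24 and 0.02 with the Sham label.

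Within CM4, *Vcl* was higher and *Gja1* lower in both libraries labelled MI, while *Cdh2* was higher with MI for the WT label and lower for the KO label. *Cdh2* had 705 CPM in WT-Sham (625 to 793), 1191 in WT-MI (1089 to 1300), 867 in KO-Sham (800 to 937) and 643 in KO-MI (561 to 734). WT-MI stood above the other 3, and the log2 ratio of MI over Sham was 0.76 (0.54 to 0.97, and 0.58 with TMM over the 16 sums) for the WT label and -0.43 (-0.66 to -0.21) for the KO label. *Ctnna3* had 1924 CPM in WT-Sham, 1887 in WT-MI, 3365 in KO-Sham and 1644 in KO-MI, so that KO-Sham alone stood apart. Its ratios were -0.03 (-0.17 to 0.12) and -1.03 (-1.17 to -0.90). *Pkp2* had 177, 380, 242 and 294 CPM in WT-Sham, WT-MI, KO-Sham and KO-MI, with 1.10 (0.69 to 1.53) and 0.28 (-0.09 to 0.64). *Vcl* had 83.4, 171, 137 and 192 CPM, with 1.03 (0.42 to 1.67) and 0.49 (0.02 to 0.95). *Gja1* had 435, 347, 505 and 317 CPM, with -0.33 (-0.66 to 0.00) and -0.67 (-0.99 to -0.36).

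By the same line, 3 members in CM4 were past 1.5-fold upward (*Cdh2*, *Pkp2* and *Vcl*) and 1 downward (*Jup*, 24 and 39 UMIs) for MI over Sham with the WT label, beside 24.1% of 5777 genes, and *Cdh2* was not past it with TMM. With the KO label 3 were past it downward (*Gja1*, *Ctnna3* and *Dsg2*, the last with 9 and 65 UMIs), beside 18.0% of 6744 genes. For KO over WT, 3 passed upward between the Sham libraries, *Ctnna3* at 0.81 (0.69 to 0.93), *Dsg2* at 0.89 (0.13 to 1.71) and *Vcl* at 0.71 (0.13 to 1.33), beside 11.9% of genes. Between the MI libraries 1 passed downward, *Cdh2* at -0.89 (-1.12 to -0.66), beside 12.9%. Relative to the median of all genes, *Cdh2* in CM4 was 0.60 and -0.43 for MI over Sham and 0.24 and -0.81 for KO over WT. For *Pkp2* the values of KO over WT were 0.45 (0.05 to 0.87) between the Sham and -0.37 (-0.74 to 0.00) between the MI libraries. Long genes moved in the same comparisons: genes of 500 kb or more had median log2 ratios in CM4 of 0.31 and -0.34 for MI over Sham and of 0.53 and -0.34 for KO over WT, and their part in the value of *Ctnna3* was not tested.

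**Figure D5:**
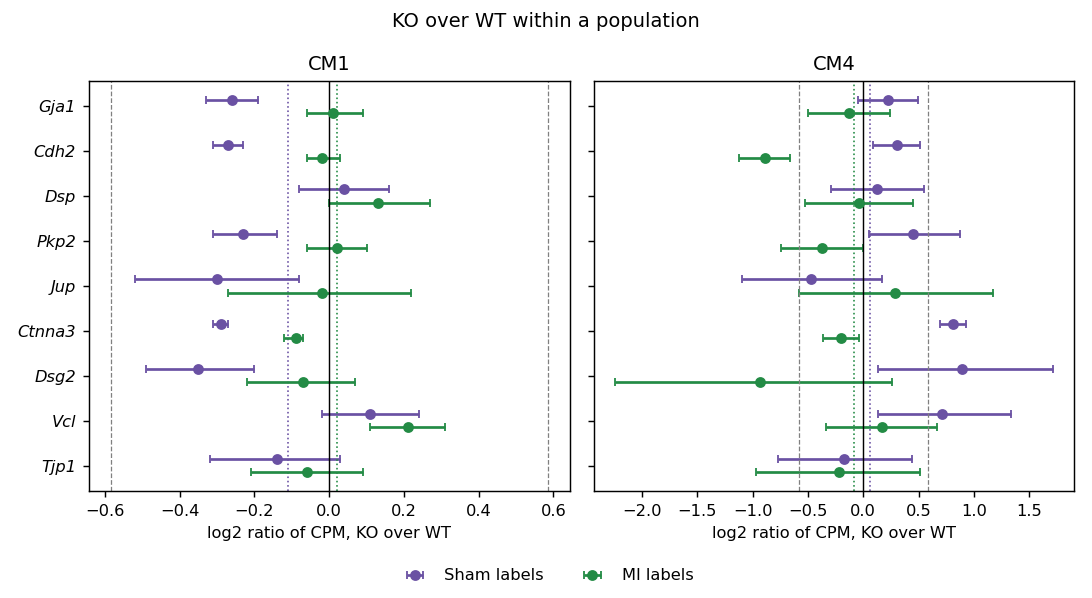
Log2 ratios of CPM, KO over WT, are shown for the 9 genes in CM1 (left) and CM4 (right), purple between the Sham libraries and green between the MI libraries, with exact 95% intervals for counting error; dashed lines mark 1.5-fold, dotted lines the median of all genes, and the axis ranges differ. No member passes 1.5-fold in CM1, while in CM4 *Ctnna3* is at 0.81 between the Sham libraries and *Cdh2* at -0.89 between the MI libraries.

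CM2 held 27 to 124 nuclei per library, too few for most members. *Ctnna3* was at -0.06 (-0.19 to 0.07) and 0.11 (0.02 to 0.21) for MI over Sham, so the difference in CM5 had no counterpart of that size in CM2. *Vcl* was again higher in KO-MI than in KO-Sham, at 0.90 (0.37 to 1.45), and at 0.04 (-0.65 to 0.78) for the WT label. *Jup* had 1 UMI in CM2 of WT-Sham, and no ratio is read from it.

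Among 37 other genes of the intercalated disc, 34 had 20 or more UMIs in CM1 for either comparison of MI with Sham. Beside 18.3% and 19.0% of all genes in either direction, for the WT label 6 passed 1.5-fold upward (*Nrap*, *Tln1*, *Des*, *Magi1*, *Xirp2* and *Sorbs2*) and none downward, and for the KO label 8 upward (*Afdn*, *Magi1*, *Xirp2*, *Ank3*, *Sorbs2* and *Bves* among them) and none downward. Their medians were 0.22 and 0.34, against -0.07 and 0.03 for all genes and -0.19 and 0.01 for the 9 members. *Xirp2*, an actin-binding protein of the disc that is also counted among the injury genes, went from 22.6 to 86.9 CPM for the WT label (1.94, 1.62 to 2.27) and from 18.1 to 66.3 CPM for the KO label (1.87, 1.58 to 2.17). *Tln1*, the integrin-linked talin, was at 0.76 for the WT label and *Magi1*, a junction scaffold, at 0.79 for the KO label. At the lower end were *Tmem65* (-0.55), a membrane protein that binds connexin 43, and *Pard3* (-0.31), a polarity protein, for the WT label, and *Gja5* (-0.58, from 18 and 37 UMIs), connexin 40, and *Perp* (-0.47), a desmosomal membrane protein, for the KO label.

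For KO over WT in CM1, none of 34 of these genes passed 1.5-fold between the MI libraries, beside 3.41% of all genes. Between the Sham libraries 1 of 33 did, beside 8.37% of all genes. This was *Csrp3*, the muscle LIM protein, at 0.83 (0.75 to 0.92). *Des*, which encodes the desmin that desmosomes anchor, was next at 0.51, while *Tmem65* (-0.55) and the desmosomal cadherin *Dsc2* (-0.52) were lowest. Between the MI libraries the ends were *Des* at 0.33 and *Popdc2* at 0.29, and *Xirp2* at -0.39 and *Nectin2* at -0.24, the last with an interval of -0.62 to 0.14. In CM5, 11 of 32 genes passed upward and 6 downward for MI over Sham with the WT label, and 11 upward and 5 downward with the KO label, beside 24.8% and 29.2% of all genes in either direction.

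The genes most like each member in pattern were sought by the root mean square difference of mean-centred log2 CPM over the 12 sums of CM1, CM4 and CM5 in the 4 libraries, among 1867 genes with 20 or more UMIs in each sum. *Ctnna3*, whose own SD over the 12 sums was 0.80, was nearest to *Tnni3k* (0.13), *Cpeb3* (0.13) and *Pde4d* (0.15). *Cdh2* (SD 0.55) was nearest to *Col4a5* (0.12), *Ammecr1* (0.12) and *Dlg1* (0.13), and *Pkp2* (SD 0.60) to *Babam2* (0.13), *Popdc3* (0.14) and *Unc13b* (0.16). *Vcl* (SD 0.57) was nearest to *Rbfox2* (0.14), *Stat3* (0.17) and *B4galt1* (0.18). For *Gja1* (SD 0.37) the nearest were *Nudt3* (0.11), *Phf14* (0.13) and *Reep3* (0.15). *Dsp* and *Tjp1* varied least, with SDs of 0.17 and 0.28, and had among their nearest genes *Pcbp2* (0.12) and *Krcc1* (0.16) for *Dsp*, and for *Tjp1* *Dag1* (0.10), *Ewsr1* (0.14) and *Med13* (0.15). No member was among the 3 nearest genes of another, but with only 3 taken from 1867 genes this does not show whether members moved together. *Jup* and *Dsg2*, with 18 and 9 UMIs in their poorest sum, could not enter.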

How the data were processed

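Single-nucleus RNA-seq of 4 libraries was used, grouped by sample title. The authors deposited UMI counts per gene and nucleus without normalization, made with Cell Ranger (version not stated) on the mm10/GRCm38 pre-mRNA reference. They had removed doublets with Scrublet and nuclei outside 200 to 2500 detected genes, and kept cardiomyocyte clusters. No doublet caller was run again. They also deposited the percent of mitochondrial UMIs, population labels and labels transferred with Seurat 3; 11 further columns held per-nucleus values that no step read. The annotation release is not given in the sources used here. Counts were summed per library and population and divided by the sum's total, as CPM. Intervals are exact at 95%, Poisson or conditional binomial, and cover counting error only. The 9 members and all lists were chosen with earlier results of these data known. Named genes are the members, the 2 highest and 2 lowest other disc genes per CM1 comparison with 50 or more UMIs, 3 nearest genes per member, and *Nfe2l1*; some of these are not reported here. Alternatives were TMM (edgeR 4.0.16), thinning to 1000 UMIs, nuclei counted equally, other denominators, other choices of nuclei and other UMI minimums. GENCODE M21 held 22122 of 22574 symbols. Python 3.11.15, numpy 2.4.6, scipy 1.17.1 and pandas 2.3.3 were used. The ratio interval and the 1.5-fold line were tried on simulated Poisson counts for MI over Sham with the WT label in CM1. The simulation had no spread between hearts or nuclei, and the other steps were not tried on it.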

Additional observations from a re-analysis of the deposited data

Results flagged for a closer look

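For 3 members the log2 ratios in 2 comparisons of the same kind lay on opposite sides of no change with both intervals excluding it, each with 1 library per group, and the difference between the ratios was not tested. For *Cdh2*, MI over Sham in CM1 was -0.19 for the WT label and 0.06 for the KO label, and the latter was 0.00 and 0.04 with TMM over 4 and 16 sums. In CM4, *Cdh2* was at 0.76 for the WT label and -0.43 for the KO label. KO over WT in CM4 was 0.30 for *Cdh2* between the Sham libraries and -0.89 between the MI libraries. The same comparisons gave 0.45 and -0.37 for *Pkp2*, and 0.81 and -0.20 for *Ctnna3*, the gene that was highest in CM4 of the library labelled KO-Sham.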

How the results depend on the processing

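No paired analysis was possible because each group is 1 library and no test was made. The number of members past 1.5-fold for MI over Sham with the WT label in CM1 was 0, and was 1, *Vcl*, with TMM, with nuclei counted equally, with CM1 by both labels, over all nuclei and, an alternative chosen after seeing the data, in nuclei with a low share of other cell types. *Vcl* itself ranged from 0.57 to 0.66. The members' median for KO over WT between the Sham libraries in CM1 was -0.26, -0.14 with TMM over the 4 CM1 sums and -0.20 with TMM over the 16 sums of library and population, a scaling chosen after seeing the data. That scaling took the members past 1.5-fold upward in CM5 with the WT label from 1 to 3, those between the Sham libraries in CM5 from 1 to 0, and those upward in CM4 with the WT label from 3 to 2. Of 288 values of single members in CM1 under 8 alternatives, 254 lay inside the interval of the value reported and 265 kept its sign, among the 23 others *Ctnna3* for MI over Sham with the KO label (0.01, and -0.17 over all nuclei). Counts of all genes past the line in CM1 stayed within 1.5 times with a minimum of 50 UMIs or none. Depth limits *Jup*, *Dsg2* and *Tjp1* in CM2, CM4 and CM5, and 1 library per group leaves the spread between hearts unknown.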
